A study of Mus musculus with 6 samples.

Results

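The 39 genes described here make the sugar precursor of N-glycans and transfer it to proteins, and they were followed step by step in livers that lack the nuclear receptors FXR and SHP in hepatocytes. They were chosen by name from the known pathway, with no threshold on measured values, out of 48699 genes in the deposited table. Of these, 5 supply dolichol, 5 supply activated mannose, 5 make or use the dolichol-phosphate sugar donors, 6 act on the cytosolic face of the endoplasmic reticulum, 3 add mannose in its lumen, 3 add glucose there, and 12 encode subunits of the oligosaccharyltransferase. All 39 were found, and all 39 passed the filter, a 6-library mean no lower than 0.5 FPKM. FPKM counts sequenced fragments per length of transcript and per library total, so it allows levels to be compared between genes.

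Liver RNA came from 6 adult male C57BL/6 mice aged between 10 and 12 weeks, after an overnight fast lasting 8 to 10 h, and the column headings of the deposited table name a chow diet for both groups. The 3 controls (Fxr fl/fl Shp fl/fl) carried floxed alleles of Nr1h4, the gene of FXR, and of Nr0b2, the gene of SHP. In the 3 double knockouts both genes were deleted in hepatocytes only. The sources used here do not name the Cre driver.

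N-linked glycosylation begins with a lipid, dolichol phosphate, in the membrane of the endoplasmic reticulum. Sugars are added to it singly, at first on the cytosolic face from nucleotide sugars and then, after the lipid is flipped, in the lumen from dolichol-phosphate-mannose and dolichol-phosphate-glucose. The oligosaccharyltransferase then moves the finished oligosaccharide to asparagine residues of proteins entering the secretory pathway. Hepatocytes secrete most plasma glycoproteins, and inherited defects of many of these genes cause congenital disorders of glycosylation.

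Nr1h4 stood at 59.8, 71.8 and 68.0 FPKM in control livers and at 21.1, 15.5 and 22.0 FPKM in double knockout livers. Its log2 fold change was -1.73 (limma adjusted p = 0.0172, SE 0.17). Nr0b2 stood at 14.7, 17.6 and 18.7 FPKM against 0.216, 0.0734 and 0.293 FPKM, which gave -3.91 on the log2 scale (limma adjusted p = 0.000277, SE 0.16). Both deleted genes were lower in every double knockout library. The libraries held between 13.2 and 14.1 fragments (in units of 1e6), read from the steps of their low FPKM values, and between 16087 and 16698 genes above 0. Hepatocyte markers were abundant in all 6 libraries, with sums over 6 genes between 34780 FPKM in double knockout 2 and 75207 FPKM in control 2. Control 3 stood apart from the other controls: its values across genes correlated with theirs at 0.952 and 0.955, against 0.983 between controls 1 and 2. The 8 immediate-early genes summed to 527 FPKM in control 3, against 31.4 and 42.5 FPKM in the other controls and 46.3, 41.2 and 112 FPKM in the double knockouts. For some members, values without control 3 are also given.

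None of the 39 genes passed the test across all genes (limma, adjusted p under 0.05), with or without control 3. In the same test 37 of 11810 genes passed, 0.313% of those tested. At an unadjusted limma p under 0.05, 2 of the 39 genes passed, Alg10b on the higher side and Dpm3 on the lower side, against 14.9% of all tested genes. Without control 3 there were 4, Alg10b and Tusc3 higher and Alg3 and Alg11 lower, against 23% of all genes then tested. The log2 fold change was positive for 13 members and negative for 26, with a median of -0.12. Over all tested genes it was positive for 5807 and negative for 6003, with a median of -0.01. The 95% confidence interval of the log2 fold change lay within -1 to 1 for 36 of the 39 genes. The exceptions were Gmppb, Alg10b and Ost4. It lay within -0.5 to 0.5 for 11. Over all 11810 tested genes these counts were 9453 and 1977. The groups did not overlap for 7 members. Alg10b was the 1 member with all double knockouts above all controls, where 11.3% of tested genes were. Mpi, Dpm3, Alg5, Alg1, Rpn1 and Krtcap2 were the 6 with all double knockouts below all controls, where 11.6% of tested genes were. Per library, the median member lay -0.10, -0.02 and 0.12 from the control mean in the controls on the log2 scale, and -0.11, -0.21 and -0.11 in the double knockouts. Control 1 was thus nearly as low as double knockouts 1 and 3. Without control 3, the median over the members was -0.08, with 14 positive and 25 negative. The log2 fold change kept its sign and moved by more than 1.5 times for 22 members, and it changed sign for Pmm1, Ostc and Magt1. Then 7 members had all double knockouts above controls 1 and 2 (Dhdds, Dpagt1, Alg6, Alg10b, Stt3a, Stt3b and Tusc3), where 21.6% of genes did. A further 9 had all double knockouts below them (Nus1, Mpi, Dpm3, Alg5, Alg1, Alg11, Alg3, Rpn1 and Krtcap2), where 23.1% of genes did.

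**Figure D1:**
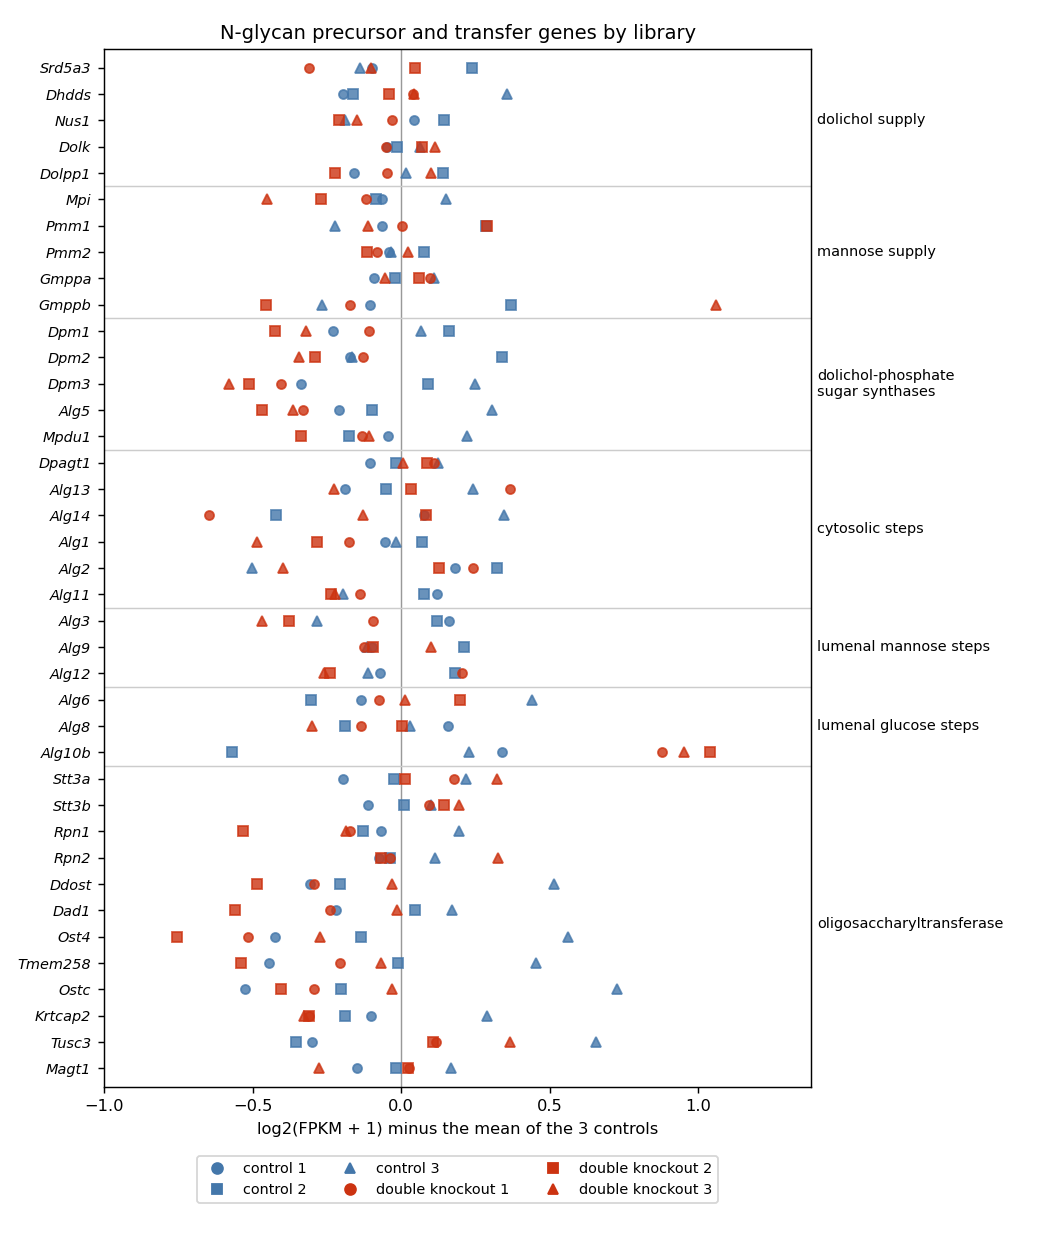
Each of the 39 genes in the order of the pathway, as log2(FPKM + 1) in each library minus the mean of the 3 controls. Blue marks are controls and red marks double knockouts. The 3 double knockout marks lie apart from and above the controls for Alg10b, and apart from and below them for 6 genes, while the groups overlap for the other 32.

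None of the genes that supply dolichol passed the test, and all 5 overlapped between the groups. Their log2 fold changes ran from -0.13 for Nus1 to 0.05 for Dolk, with a median of -0.06. Nus1 encodes the subunit that works with Dhdds in cis-prenyltransferase, the enzyme that builds the long polyprenyl chain. It was the most abundant of the 5, at 14.7, 15.8 and 12.3 FPKM in control livers and 13.9, 12.2 and 12.7 FPKM in double knockout livers. The groups overlapped, and limma gave an adjusted p of 0.708. Dhdds averaged 9.16 ± 2.30 FPKM in control livers and 9.10 ± 0.33 FPKM in double knockout livers (SD, n = 3). Its log2 fold change was 0.01, and 0.19 without control 3 (limma adjusted p = 0.362). Srd5a3, the reductase of the polyprenyl chain, averaged 6.43 ± 1.11 and 5.82 ± 0.84 FPKM. Dolk, the kinase that makes dolichol phosphate, averaged 7.39 ± 0.33 and 7.67 ± 0.51 FPKM. Dolpp1, the phosphatase that recycles dolichol pyrophosphate, averaged 7.41 ± 0.87 and 7.09 ± 0.91 FPKM.

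The isoprenoid genes upstream of dolichol behaved differently between animals. The 8 genes from Hmgcs1 to Ggps1 summed to 179, 151 and 694 FPKM in control livers and to 199, 177 and 621 FPKM in double knockout livers. Control 3 and double knockout 3 were the high libraries, 1 in each group. The 5 dolichol genes summed to between 41.5 and 47.0 FPKM over the same 6 libraries, without such a spread.

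None of the genes of mannose supply passed the test either. Mpi, which isomerizes fructose 6-phosphate to mannose 6-phosphate, stood at 5.37, 5.28 and 6.39 FPKM in control livers and at 5.13, 4.53 and 3.87 FPKM in double knockout livers. All 3 double knockouts were below all 3 controls, but the lowest control and the highest double knockout were close, and the log2 fold change was -0.28 (limma adjusted p = 0.440, SE 0.16). Pmm2, the main phosphomannomutase of N-glycosylation and the gene of the most common congenital disorder of glycosylation, stood at 25.3, 27.5 and 25.4 FPKM against 24.6, 23.9 and 26.5 FPKM. Its log2 fold change was -0.06 (limma adjusted p = 0.862, SE 0.13), and it was 0.03 after quantile normalization and 0.04 with the trend on transcript length and GC content removed (0.09 with lengths limited to the deposited loci). Pmm1, another phosphomannomutase, averaged 2.53 ± 0.65 FPKM in control livers and 2.66 ± 0.53 FPKM in double knockout livers. Gmppb encodes the catalytic subunit of GDP-mannose pyrophosphorylase and Gmppa its regulatory subunit. Gmppa averaged 14.9 ± 1.16 and 15.3 ± 0.88 FPKM. Gmppb was the least certain gene of this step, at 7.48, 10.8 and 6.57 FPKM against 7.09, 5.65 and 18.0 FPKM. Double knockout 3 alone was high, and the 95% confidence interval of the log2 fold change ran from -0.76 to 1.05. Exons of Gmppb overlap those of other annotated genes on both strands, so its value is uncertain.

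All 5 genes that make or use the dolichol-phosphate sugars had negative log2 fold changes, with a median of -0.28, and none passed the limma test after adjustment. Dpm1 is the catalytic subunit of dolichol-phosphate-mannose synthase, and Dpm2 and Dpm3 hold and stabilize it in the membrane. Dpm3 stood at 73.8, 99.7 and 111 FPKM in control livers and at 70.4, 65.4 and 62.3 FPKM in double knockout livers. The groups did not overlap, although control 1 lay close to double knockout 1. The controls averaged 1.44-fold the double knockouts, and the log2 fold change was -0.50 (SE 0.18, 95% confidence interval -0.93 to -0.07, limma adjusted p = 0.286). Without control 3 it was -0.37 (limma adjusted p = 0.231). Dpm1 averaged 77.8 ± 10.7 FPKM in control livers and 63.5 ± 7.39 FPKM in double knockout livers, with overlap between the groups. Dpm2 averaged 20.2 ± 4.52 and 16.6 ± 1.37 FPKM, also with overlap. Exons of Dpm1 overlap those of the annotated gene Gm20716 on the same strand, so the value of Dpm1 is uncertain.

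Alg5, the synthase of dolichol-phosphate-glucose, stood at 24.0, 26.0 and 34.6 FPKM in control livers and at 22.0, 19.9 and 21.4 FPKM in double knockout livers. These groups did not overlap (log2 fold change -0.39, limma adjusted p = 0.345). Without control 3 the log2 fold change of Alg5 was -0.23 (limma adjusted p = 0.292). Mpdu1, which is needed for the use of both donors in the lumen, averaged 53.3 ± 7.80 and 46.3 ± 4.02 FPKM, with overlap. Other consumers of dolichol-phosphate-mannose, which serve O-mannosylation, C-mannosylation and the anchors of membrane proteins, did not share the negative signs. Of 11 tested, 8 were positive and 3 negative, with a median of 0.10. Among them Dpy19l1, a C-mannosyltransferase, stood at 22.5, 24.0 and 20.3 FPKM against 35.9, 32.2 and 37.0 FPKM, with no overlap (limma adjusted p = 0.140). Dpy19l1 was singled out after its values were seen.

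The cytosolic steps gave 2 positive and 4 negative log2 fold changes, with a median of -0.10. Dpagt1, which puts the first sugar phosphate on dolichol phosphate and is the target of tunicamycin, stood at 12.7, 13.5 and 15.0 FPKM in control livers and at 14.9, 14.6 and 13.8 FPKM in double knockout livers. The double knockouts lay within the range of the controls (limma adjusted p = 0.841). Alg13 and Alg14 form the enzyme that adds the second N-acetylglucosamine. Alg13 averaged 3.58 ± 0.71 and 3.80 ± 1.00 FPKM, and Alg14 14.3 ± 3.95 and 12.0 ± 3.18 FPKM. The log2 fold change of Alg14 was -0.23, and -0.06 without control 3 (limma adjusted p = 0.906). Alg1, the mannosyltransferase that follows, stood at 13.1, 14.4 and 13.5 FPKM in control livers and at 12.0, 11.0 and 9.47 FPKM in double knockout livers. All 3 double knockouts were below the controls, with a log2 fold change of -0.31 (limma adjusted p = 0.352, SE 0.14). Alg2 and Alg11 add the remaining cytosolic mannoses. Alg2 averaged 5.52 ± 1.82 and 5.40 ± 1.42 FPKM, and Alg11 6.55 ± 0.87 and 5.55 ± 0.24 FPKM, both with overlap. Their log2 fold changes were -0.01 and -0.20, and -0.26 and -0.30 without control 3 (limma adjusted p = 0.483 and 0.214).

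The 3 mannosyltransferases of the lumen, which draw on dolichol-phosphate-mannose, had negative log2 fold changes of -0.31 (Alg3), -0.04 (Alg9) and -0.10 (Alg12). Alg3, which adds the first lumenal mannose, stood at 10.8, 10.5 and 7.70 FPKM in control livers and at 8.92, 7.14 and 6.64 FPKM in double knockout livers. Control 3 lay below double knockout 1, so the groups overlapped (SE 0.18, limma adjusted p = 0.453). Without control 3 they did not overlap, and the log2 fold change was -0.45 (limma adjusted p = 0.152). Alg9 averaged 7.59 ± 1.14 and 7.32 ± 0.72 FPKM, and Alg12 3.28 ± 0.48 and 3.02 ± 0.77 FPKM.

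The 3 glucosyltransferases act at the end, in a fixed order, and the glucose that Alg10b adds is the end mark that the oligosaccharyltransferase recognizes. Their upstream sequences are shown because these genes sit side by side in the pathway but had unlike values. The lines give the 250 bases upstream of each start, from RefSeq on GRCm38.p6, 5′ to 3′ on the gene's strand. Capitals mark GC boxes (GGGCGG, or its reverse complement) and, in Alg6, the reverse complement of the nuclear receptor half-site AGGTCA.
Alg6, chr4:99715380-99715629, strand +: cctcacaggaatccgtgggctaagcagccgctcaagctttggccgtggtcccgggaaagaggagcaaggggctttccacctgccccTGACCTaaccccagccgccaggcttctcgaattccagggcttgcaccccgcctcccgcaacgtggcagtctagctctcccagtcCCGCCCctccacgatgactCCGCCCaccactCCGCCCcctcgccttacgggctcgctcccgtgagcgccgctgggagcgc
Alg8, chr7:97371367-97371616, strand +: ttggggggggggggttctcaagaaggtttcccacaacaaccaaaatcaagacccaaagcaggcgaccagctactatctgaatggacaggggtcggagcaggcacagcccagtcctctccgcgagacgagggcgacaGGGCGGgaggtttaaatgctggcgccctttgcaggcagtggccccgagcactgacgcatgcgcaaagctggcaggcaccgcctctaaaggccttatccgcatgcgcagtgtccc
Alg10b, chr15:90224061-90224310, strand +: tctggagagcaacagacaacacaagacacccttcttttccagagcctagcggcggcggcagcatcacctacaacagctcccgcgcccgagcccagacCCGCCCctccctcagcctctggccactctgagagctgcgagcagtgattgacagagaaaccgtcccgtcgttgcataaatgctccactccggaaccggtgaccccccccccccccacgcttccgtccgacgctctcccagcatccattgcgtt

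Alg10b (ENSMUSG00000075470.1) lies on chromosome 15 from 90224311 to 90233471, plus strand, in GENCODE M21 on GRCm38, with 3 exons. Its locus in the deposited table ends at 90230554 and holds 3727 of the 6644 exon bases. Alg10b stood at 4.46, 1.90 and 4.05 FPKM in control livers and at 6.93, 7.85 and 7.33 FPKM in double knockout livers. Every double knockout was above every control. The means were 3.47 ± 1.37 and 7.37 ± 0.46 FPKM (SD, n = 3), a 2.12-fold higher mean in the double knockouts. The log2 fold change was 0.96 (SE 0.25, 95% confidence interval 0.37 to 1.54), and limma gave an adjusted p of 0.182. In the authors' deposited table Alg10b was called higher with a q-value of 0.00121. Fos, Fosb, Junb, Atf3 and Ier2 had the same q-value there and were called lower, with control 3 far above the other libraries. Fos stood at 0.220, 0.103 and 53.7 FPKM in control livers, with a limma adjusted p of 0.784. There, 2.85% of the genes tested were called higher, and Alg10b was the 1 member called in either direction.

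By those 3727 bases and the depth of the libraries, Alg10b rested on about 219, 100 and 207 fragments in the controls and 364, 408 and 382 in the double knockouts. The counting error of a library was then between 4.95% and 9.99%, smaller than the gap between control 2 and the other controls. Leaving out 1 library at a time gave log2 fold changes between 0.67 and 1.13, each positive. The smallest was without control 2 (limma adjusted p = 0.376). Without control 3 it was 1.07 (limma adjusted p = 0.0896). With libraries weighted by their estimated reliability it was 1.15 (limma adjusted p = 0.0440), the 1 setting in which a member passed the test. In that setting 563 of 11810 genes passed. Control 2, where Alg10b was lowest, had the highest weight, 2.13, and control 3 the lowest, 0.232. With the trend on transcript length and GC content removed, it was 0.80 at the full 6644 bases (limma adjusted p = 0.254) and 0.92 with all lengths limited to the deposited loci (limma adjusted p = 0.202). The microRNA gene Mir7648 overlaps Alg10b on the same strand, and the sources used here do not state how overlapping genes were counted.

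The neighbouring steps had smaller differences. Alg6, which adds the first glucose, stood at 3.35, 2.88 and 5.49 FPKM in control livers and at 3.55, 4.49 and 3.82 FPKM in double knockout livers. Alg8, which adds the second, stood at 3.93, 2.88 and 3.52 FPKM against 3.02, 3.43 and 2.59 FPKM. Both overlapped between the groups, with log2 fold changes of 0.05 and -0.15. Without control 3 these were 0.27 and -0.13 (limma adjusted p = 0.327 and 0.679), and all double knockouts were then above the controls for Alg6. In the controls the means of the 3 genes lay between 3.44 and 3.91 FPKM, closer together than the spread of their libraries. In the double knockouts Alg10b was above both others in each library.

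**Figure D2:**
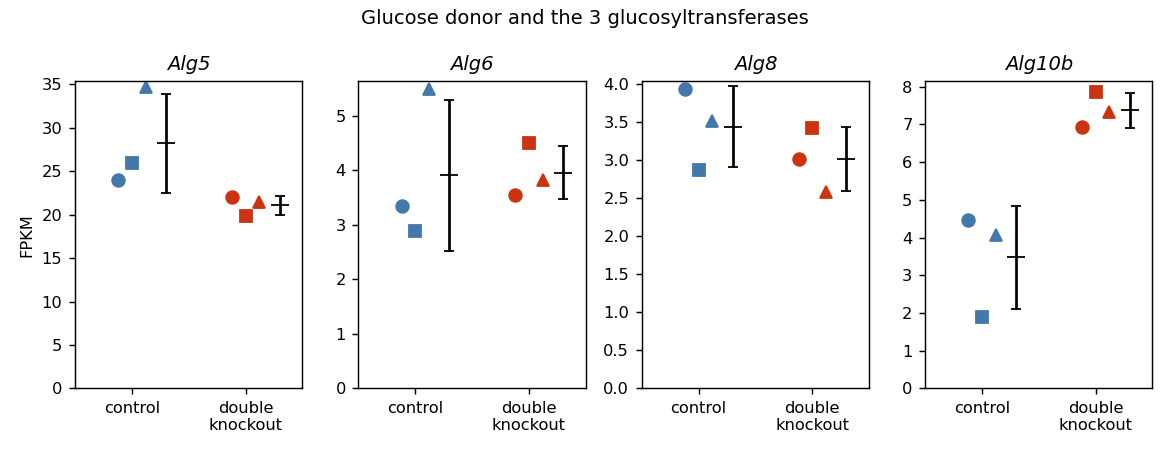
FPKM in each library of Alg5, the glucose donor's synthase, and of the glucosyltransferases Alg6, Alg8 and Alg10b. Circles, squares and triangles are libraries 1, 2 and 3 of each group, and bars are the mean and SD (n = 3). The double knockouts lie between 6.93 and 7.85 FPKM for Alg10b, above all controls, and within or near the range of the controls for Alg6 and Alg8.

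Promoters were found for 33 of the 39 members, in windows of 250 bases before to 50 bases after the start, and motifs were searched on both strands. Members were counted per gene, with a match in any window, and Rpn2, Krtcap2 and Tmem258 had more than 1. The background was counted per promoter, without a filter on expression, so the shares are not strictly alike. A GC box (GGGCGG) was present in 22 of 33, or 66.7%, against 35.7% of 32851 promoters of all genes. The CCAAT box (CCAAT) was present in 18, or 54.5%, against 37.4%. The E-box CACGTG was present in 6, or 18.2%, against 7.15%. The endoplasmic reticulum stress element, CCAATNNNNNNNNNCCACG, whose first letters are themselves a CCAAT box, was present in 1 member, Alg12, and in 0.119% of all promoters. The half-site AGGTCA was present in 5 members (Alg6, Dhdds, Magt1, Ost4 and Rpn2), or 15.2%, against 16.3%. The inverted repeat AGGTCANTGACCT, the form that FXR binds with its partner RXR, was present in 0 of 33 and in 3 of all promoters. TGACGTGG, the core of the unfolded protein response element, was present in 0 of 33 and in 0.676% of all promoters. Such matches describe the letters of these windows only.

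The transferase subunits had control means from 4.71 FPKM for Tusc3 to 95.3 FPKM for Dad1, and none passed the test. Their log2 fold changes were positive for 4 and negative for 8, with a median of -0.26. Control 3 was the highest library for 9 of the 12, where it was the highest for 26.6% of all tested genes. Without that library 6 subunits were positive and 6 negative, and their median was -0.003. Per library, the median subunit lay -0.21, -0.08 and 0.25 from the control mean in the controls and -0.19, -0.36 and -0.03 in the double knockouts, so that the groups overlapped.

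The catalytic subunits had small positive differences. Stt3a, which serves proteins as they enter through the translocon, averaged 14.9 ± 2.30 FPKM in control livers and 16.8 ± 1.90 FPKM in double knockout livers. Stt3b, which also acts after translation on skipped sites, averaged 20.6 ± 1.60 and 22.8 ± 0.82 FPKM. The ratio of Stt3a to Stt3b was 0.676, 0.702 and 0.785 in the controls and 0.766, 0.654 and 0.792 in the double knockouts. The log2 ratio differed by 0.03 between the groups (two-sided exact permutation test, p = 0.9, adjusted p = 0.9 over 4 ratios). Groups of 3 cannot give an exact p below 0.1. Magt1 and Tusc3 encode alternative oxidoreductase subunits of the Stt3b complex. Magt1 exceeded Tusc3 in every library, 3.60, 4.17 and 2.05 times in the controls and 2.86, 2.88 and 1.86 times in the double knockouts (exact permutation p = 0.4, adjusted p = 0.9). The log2 ratio was lower by 0.27 in the double knockouts, and without control 3 by 0.52, with no overlap. Without control 3 the log2 fold change of Tusc3 was 0.52 (limma adjusted p = 0.111), against 0.20 with it. The ratio of Pmm2 to Pmm1 ran from 7.34 to 12.7 over the libraries, and that of Gmppb to Gmppa from 0.363 to 1.26, and neither passed the test between the groups (exact permutation p = 0.6 and 0.9, adjusted p = 0.9 for both).

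The scaffold subunits were mixed. Rpn1 (ribophorin I) stood at 35.5, 34.1 and 42.8 FPKM in control livers and at 33.0, 25.5 and 32.7 FPKM in double knockout livers, without overlap, with a log2 fold change of -0.30. Rpn2 (ribophorin II) averaged 78.3 ± 5.59 and 83.1 ± 13.3 FPKM. Ddost averaged 46.5 ± 15.7 and 37.4 ± 6.13 FPKM, with control 3 at 64.6 FPKM, and its log2 fold change went from -0.27 to -0.01 without that library. Dad1, named for the cell death that follows its loss, stood at 81.2, 97.9 and 107 FPKM against 80.1, 63.9 and 93.8 FPKM. Its groups overlapped, and it was the most abundant subunit by its mean over all libraries (log2 fold change -0.27, limma adjusted p = 0.530).

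The small membrane subunits Ost4, Ostc, Tmem258 and Krtcap2 were highest in control 3. Ost4 stood at 61.8, 75.8 and 124 FPKM in control livers and at 58.0, 49.0 and 68.8 FPKM in double knockout livers. Control 3 was far above the others, the groups overlapped, and the log2 fold change was -0.52 (SE 0.27, 95% confidence interval -1.14 to 0.11, limma adjusted p = 0.409). Without control 3 it was -0.23. Ostc stood at 71.7 FPKM and Tmem258 at 60.5 FPKM in control 3, against 29.5 to 43.6 FPKM for both genes in the other libraries. Krtcap2 stood at 49.3, 46.3 and 65.0 FPKM against 42.6, 42.5 and 42.0 FPKM, without overlap (log2 fold change -0.32, limma adjusted p = 0.407). Without control 3 the log2 fold change was -0.17 for Krtcap2, -0.04 for Tmem258 and 0.12 for Ostc. Exons of Ost4, Tmem258 and Krtcap2 overlap those of a gene on the opposite strand, as do those of 9 other members, and the sources used here do not state whether counting used strand.

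**Figure D3:**
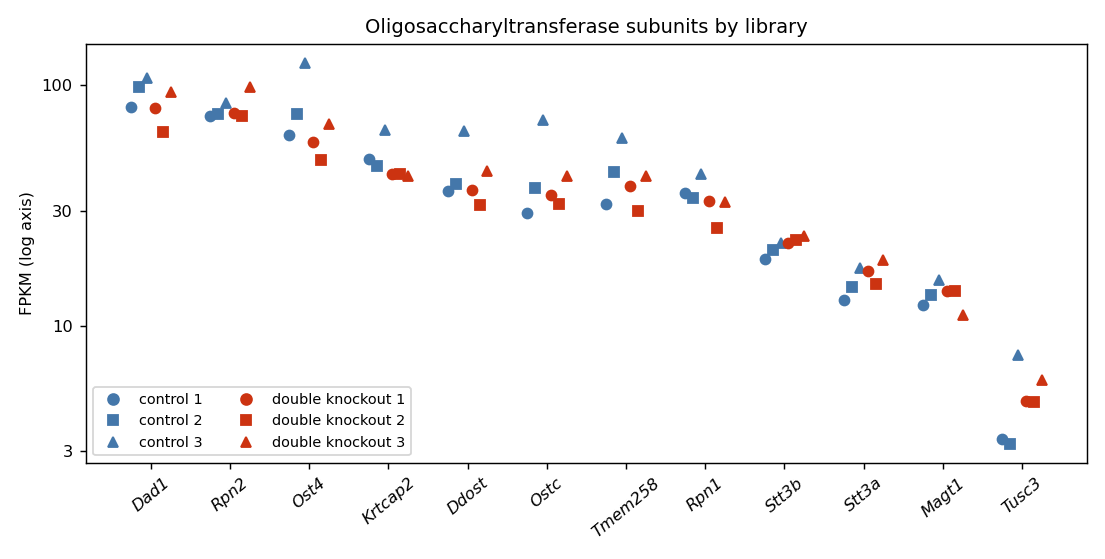
FPKM on a log axis of the 12 oligosaccharyltransferase subunits in each library. Control 3 is the highest library for 9 of the 12, against 26.6% of all tested genes, and the groups do not overlap for Rpn1 and Krtcap2.

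Log2 fold changes tended to rise with transcript length, from negative towards positive, among the members as among all genes. Lengths were counted inside the loci of the deposited table, a choice made after the data were seen, since 3 members (Pmm2, Dpagt1 and Alg10b) are shorter there by more than 100 bases. The median log2 fold change of all tested genes was -0.28 for transcripts under 1 kb, -0.16 between 1 and 2 kb, 0.001 between 2 and 4 kb and 0.17 from 4 kb. The members had medians of -0.38 (4 genes), -0.16 (14 genes), -0.05 (16 genes) and -0.08 (5 genes) in the same classes. Dpm2, Dpm3, Ost4 and Tmem258 have transcripts under 1 kb. Across genes, Spearman's rho between length and log2 fold change was 0.434 over the 39 members and 0.423 over 11785 genes, in the same 6 libraries. With the trend on length and GC content removed in each library, the median of the members was -0.05 and that of the transferase -0.11. Dpm3 then had a log2 fold change of -0.30 and Ost4 of -0.33. The other dolichol-phosphate sugar genes then had -0.18 (Dpm1), -0.07 (Dpm2), -0.24 (Alg5) and -0.05 (Mpdu1). Rpn1 was then the most negative member, at -0.40, against -0.30 before the removal (limma adjusted p = 0.391). At an unadjusted limma p under 0.05, Alg10b and Rpn1 then passed and Dpm3 did not, where 1449 of 11785 genes passed. The part of length in the differences of single genes was not tested further.

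**Figure D4:**
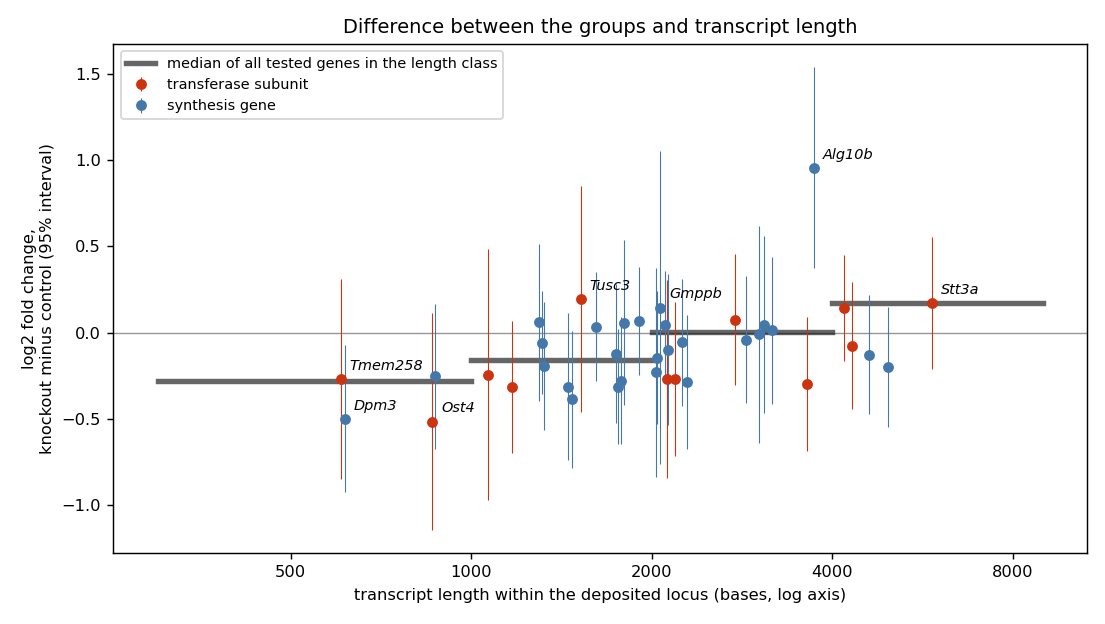
Log2 fold change (double knockout minus control, with 95% interval) of each of the 39 members against transcript length within the deposited locus, in bases on a log axis. Grey lines are medians of all tested genes in 4 length classes, which run from -0.28 for the shortest to 0.17 for the longest, and Alg10b lies above the others.

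The gene lists on either side of the pathway held no member past the limma test. UDP-sugar supply, which feeds the cytosolic steps, had 5 positive and 1 negative of 6 tested, with a median of 0.11. Its rate-limiting enzyme Gfpt1 stood at 3.08, 2.87 and 1.78 FPKM in control livers and at 4.10, 3.85 and 3.51 FPKM in double knockout livers, without overlap (limma adjusted p = 0.326). Gfpt1, the 1 gene of this list without overlap, was singled out after its values were seen. The trimming and folding factors that act first after transfer had 4 positive and 4 negative, with a median of 0.02. Translocon partners had 1 positive and 7 negative, with a median of -0.24. The 15 chaperones and stress genes were all negative, with a median of -0.44. Of these 15, 7 had all double knockouts below all controls, against 11.6% of all tested genes. Per library they lay at medians of -0.23, 0.27 and -0.18 in the controls and -0.31, -0.56 and -0.53 in the double knockouts. The authors' deposited table called 2 of them lower, Sdf2l1 with a q-value of 0.0137 and Creld2 with a q-value of 0.00569, where 1.73% of the genes tested there were called lower. Creld2 stood at 14.3, 35.1 and 13.0 FPKM against 14.3, 9.74 and 8.22 FPKM, so that control 2 alone was high.

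**Figure D5:**
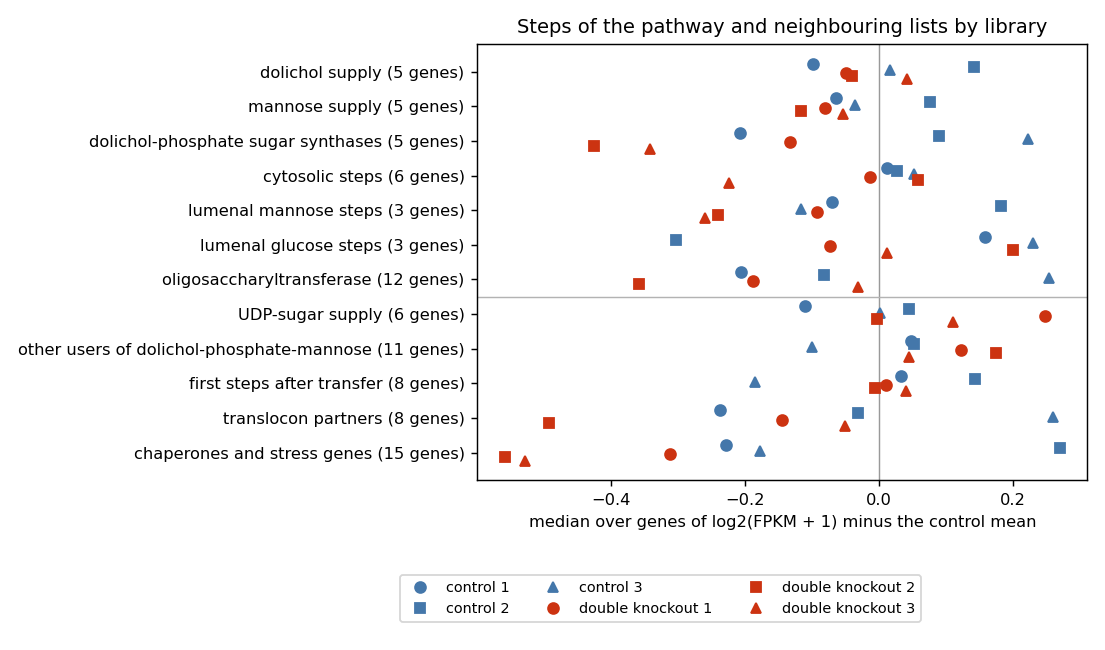
Median over the genes of each step, and of 5 neighbouring lists below the line, of log2(FPKM + 1) minus the control mean, 1 mark per library. The 3 double knockouts lie below all controls for the chaperones and stress genes, and the groups overlap for each of the 7 steps.

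Markers of other liver cells also differed between libraries. In bulk tissue, fewer cells of a type and less RNA per cell cannot be told apart. The 6 macrophage markers were all positive, with a median log2 fold change of 0.78, and summed to 62.5, 48.8 and 134 FPKM in control livers and to 92.9, 224 and 86.6 FPKM in double knockout livers. The bile duct markers had 4 positive of 4 tested, and their sums were 33.7, 37.3 and 44.2 FPKM against 59.1, 63.0 and 63.7 FPKM. Most of these sums was Spp1, at 31.1, 34.3 and 42.6 FPKM against 55.2, 59.5 and 60.9 FPKM. Epcam stood at 0.760, 0.497 and 0.477 FPKM against 1.29, 0.935 and 0.862 FPKM. Spp1 and Epcam did not overlap between the groups (limma adjusted p = 0.146 and 0.365), while Krt19 and Sox9 did. The 6 hepatocyte markers had 1 positive and 5 negative, with a median of -0.40. Their sums were 62179, 75207 and 64881 FPKM in control livers and 48682, 34780 and 55226 FPKM in double knockout livers, without overlap. The largest part of these sums was Alb, at 37008, 43645 and 42011 FPKM against 23233, 17009 and 34609 FPKM. Of the single hepatocyte genes, Alb was the 1 without overlap (limma adjusted p = 0.381), and the others overlapped between the groups. Endothelial markers had 2 positive and 3 negative, stellate cell markers 3 and 2, and the lymphocyte markers summed to between 0.694 and 1.78 FPKM. Stab2 was the 1 endothelial marker without overlap, at 3.70, 3.94 and 3.93 FPKM against 5.70, 8.04 and 4.50 FPKM (limma adjusted p = 0.304). None of these marker genes was at 0 in all libraries. Their part in the values of Alg10b or of any other member was not tested.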

How the data were processed

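The authors deposited FPKM per gene for each of the 6 libraries, and a comparison of the groups with a p-value and a q-value per gene, in Cuffdiff's layout per the file headers. Cuffdiff 2.2.1, STAR 2.4.2a, Picard 1.119, bcl2fastq 2.17.1.14 and Trimmomatic are listed, without roles, in the submitters' processing notes. The annotation and whether counting used strand were not given in the sources used here. FPKM are not counts, so limma 3.58.1 (R 4.3.3) with a mean-variance trend was run on log2(FPKM + 1), a scale that understates changes of low genes. Genes averaging 0.5 FPKM or more were tested, with Benjamini-Hochberg adjustment over all 11810 at 0.05. Each library was taken as 1 of the 3 mice of its group, and the code was tested on simulated data. The sources used here do not state whether the replicate numbers pair the samples, and the main test did not use them as pairs.

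The members and gene lists were chosen with earlier results of these data known. Every member was accounted for. Values of all libraries were given for members with an unadjusted p under 0.05 or the authors' call, for the largest log2 fold change and the most abundant member of each step, and, chosen after their values were seen, for those without overlap, Gmppb, Alg6 and Alg8. GENCODE M21 (GRCm38) gave loci, lengths and GC content, and RefSeq gave promoters. Alternatives were other pseudocounts, filters and scalings, library weights, a length and GC correction (also, added after seeing the data, with lengths limited to the deposited loci), the replicate number as a block, and leaving out each library.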

Additional observations from a re-analysis of the deposited data

How the results depend on the processing

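The median of the members stayed between -0.14 and -0.05 under all 16 alternatives, and 25 to 29 of the 39 log2 fold changes were negative. Against 37 genes past the threshold, 2 passed with no filter on low values and 563 with library weights, which gave control 3 a weight of 0.232. Control 2 had the highest weight, 2.13. Leaving out 1 library at a time gave 2 to 242 genes, the highest without control 3. Members past the threshold numbered 1 with library weights (Alg10b) and 0 in the other alternatives. The transferase median was -0.04 with library weights, -0.09 with quantile normalization and -0.35 to -0.003 leaving out 1 library. Pmm2 turned from -0.06 to 0.034 with quantile normalization, to 0.035 with the length and GC trend removed, and to 0.090 with lengths limited to the deposited loci, an alternative chosen after seeing the data. The cause of these changes was not tested. With the replicate number as a block, 50 genes and 0 members passed. Deviations of same-numbered libraries correlated at 0.22, -0.08 and 0.30, and control 2 correlated best with double knockout 1. With 3 libraries a group, and about 100 fragments for a member as low as Alg10b in control 2, small differences were not detectable.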
